A study of Rattus norvegicus with 9 samples.

Results

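Neuroglobin (Ngb) and cytoglobin (Cygb) are heme proteins of the globin family, and their mRNA was measured here in a rat model of bladder transitional cell carcinoma. The array annotation gives them 3 of the 31042 probe sets tested, 2 for Ngb and 1 for Cygb, and they are 2 of the 14217 genes measured. None of these 3 probe sets is shared with another gene. The pair was chosen by measured values: Ngb was selected on its low signal in tumors against normal bladders, and Cygb was taken with it as its relative in the family. The tumor against normal values of both genes, and the adjacent against normal values of Ngb, are therefore given as a description with no test.

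The 9 tissue samples, with 1 array each, form 3 groups of 3. Tumors came from female SD rats, 10 weeks old, whose bladders were instilled through the urethra with 20 mg/ml MNU (N-methyl-N-nitrosourea, an alkylating carcinogen) weekly for 10 weeks. Adjacent samples are normal bladder tissue taken beside the tumors of the same 3 rats, and normal samples are bladders of 3 other rats whose labels give the same strain, sex and age. The sample labels attach the same MNU text to all 9 samples, while the series design calls the last group normal rats, and it was used as such here. The samples are whole pieces of tissue. A lower signal can therefore come from fewer cells of a type or from less RNA per cell, and these cannot be told apart.

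Hemoglobin and myoglobin carry and store oxygen in red cells and muscle, whereas Ngb and Cygb are present at far lower levels in other cells. Ngb is known from neurons of the brain, the retina and the peripheral and endocrine nervous systems, where it binds oxygen and nitric oxide and has been linked to survival of cells short of oxygen. Cygb is known from fibroblasts, pericytes, vascular smooth muscle and the stellate cells of the liver, where it removes nitric oxide and reactive oxygen species with help from cytochrome b5 reductases. The bladder wall holds autonomic nerve fibers and ganglia as well as fibroblasts and muscle beneath its urothelium.

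In the RefSeq annotation of build GRCr8, Ngb lies on the minus strand of chromosome 6 at chr6:112475332-112480786, and Cygb lies on chromosome 10 at chr10:102376506-102386272. The promoter of Ngb is printed because its mRNA shows the larger difference of the pair, and because Ngb has been studied as a gene of low oxygen. The 250 bases before its RefSeq start (chr6:112480787-112481036, minus strand) read as follows, with capitals marking the one stretch whose reverse complement is GCGTG, a core of the site bound by hypoxia-inducible factors.
Ngb: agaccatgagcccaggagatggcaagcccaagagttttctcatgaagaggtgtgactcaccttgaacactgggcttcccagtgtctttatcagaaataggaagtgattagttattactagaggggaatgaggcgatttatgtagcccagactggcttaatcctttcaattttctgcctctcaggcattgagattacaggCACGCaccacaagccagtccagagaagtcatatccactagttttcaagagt
On either strand, GCGTG is found in 25.9% of 33469 RefSeq promoter windows of the same length, so it is a common match. The letters ACGTG (16.6% of windows), GGGCGG (the GC box, 30.5%), CCAAT (34.0%), TATAAA (12.9%) and CANNTG (the E box, 65.5%) do not occur in the window of Ngb. Its GC content is 45.6%. Cygb was not matched in the promoter table.

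On the brighter of its probe sets, Ngb had a strong and even signal in the 3 normal bladders and a dim one in all 6 samples of tumor-bearing rats. Values are MAS 5.0 signals on a log2 scale, which the authors brought to one mean level per array. A linear signal of 50, or 5.64 on the log2 scale, was taken as the limit under which a probe set is dim, a limit chosen in an earlier look at the spread of these data. On this probe set, tumors 1, 2 and 3 had log2 signals of 5.16, 2.76 and 4.93. Adjacent samples 1, 2 and 3 had 4.87, 2.76 and 2.52, and normal bladders 1, 2 and 3 had 10.90, 10.61 and 10.75. Every tumor and every adjacent sample was dim, and the groups did not overlap with normal bladder.

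Means were 4.28 ± 1.32 in tumors, 3.38 ± 1.29 in adjacent samples and 10.75 ± 0.14 in normal bladders (SD, n = 3 arrays each). The fitted log2 difference was -6.47 (SE 0.60) for tumors against normal bladders and -7.37 (SE 0.58) for adjacent samples against normal bladders. Because dim signals carry little order, the fold is stated as a bound, the mean of normal bladders over a signal of 50: Ngb was at least 34.5-fold lower in tumors, and by the same bound in adjacent samples, which share the normal arrays. A signal of 50 is 2.89% of the mean linear signal of normal bladders, and all 6 samples of tumor-bearing rats lay under that share.

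The second Ngb probe set ran lower throughout and was less even in normal bladders. Its log2 signals were 2.48, 3.69 and 3.59 in tumors 1, 2 and 3, then 2.30, 2.07 and 2.87 in adjacent samples 1, 2 and 3, against 4.19, 6.84 and 7.21 in normal bladders 1, 2 and 3. Normal bladder 1 was itself dim on this probe set, although it had the highest signal of all on the brighter one. The difference was -2.82 (SE 0.86) in tumors and -3.67 (SE 0.85) in adjacent samples, each against normal bladders, but these values rest on dim signals in both groups compared, so no fold or bound is given. Normal bladders 2 and 3 were above the limit and every sample of tumor-bearing rats was under it, while the order among the dim arrays, normal bladder 1 included, carries no weight. Levels of different probe sets cannot be set against each other.

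**Figure D1:**
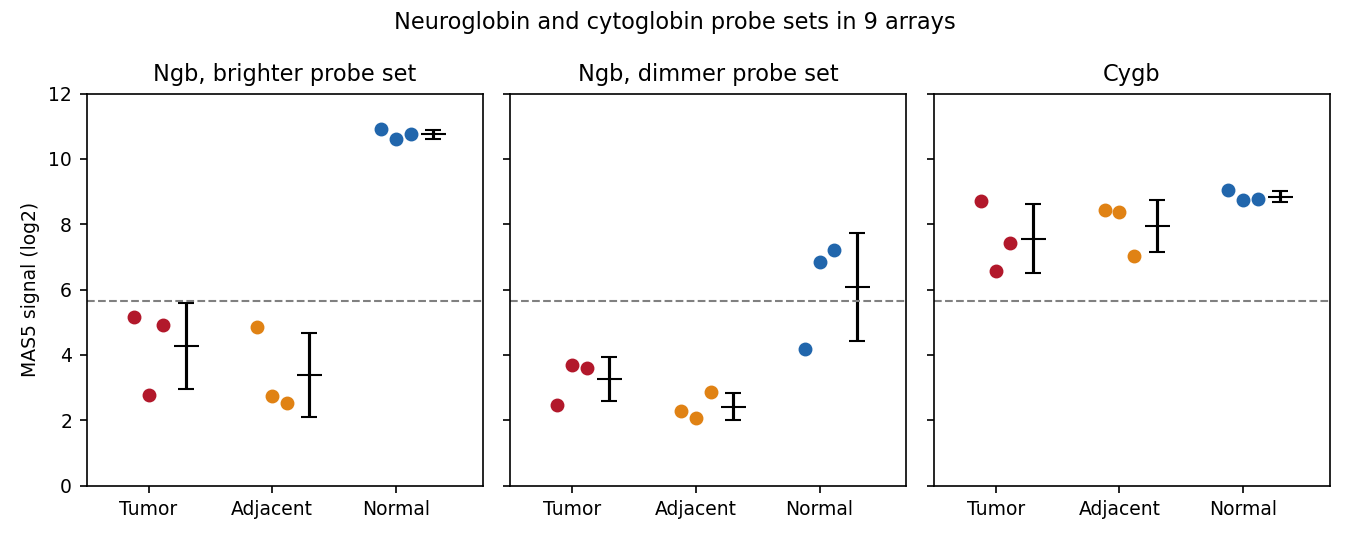
Log2 MAS 5.0 signal (y axis) of the 2 Ngb probe sets and the Cygb probe set in tumor, adjacent and normal bladder samples (x axis). Each point is 1 array, the bars beside the points give the mean ± SD of 3 arrays, and the dashed line marks a signal of 50; the Ngb points of tumors and adjacent samples all lie under that line, whereas all 9 Cygb points lie above it.

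Between tumors and adjacent samples no difference of Ngb could be read. Tumors averaged 0.90 (SE 0.94) above adjacent samples on the log2 scale for the brighter probe set, with an adjusted p of 1 from limma and a two-sided exact permutation p of 0.2. The second probe set gave 0.85 (SE 0.73), also with an adjusted p of 1 and an exact permutation p of 0.2. With 3 arrays against 3 the smallest p that this permutation test allows is 0.1. Since all 6 arrays were dim on both probe sets, no fold is given, and the tumor arrays are the ones on which Ngb was selected. Taking tumor minus adjacent for samples of the same number, the brighter probe set gave 0.29, 0.00 and 2.41 and the second 0.18, 1.63 and 0.73 for numbers 1, 2 and 3, none of them negative but all from dim signals. Over all probe sets limma called 0 of 31042 (0%) between tumors and adjacent samples, 845 had an unadjusted p under 0.05, and 395 passed the methods' t-test with a fold of at least 2.

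Cygb showed a smaller and less even difference. Tumors 1, 2 and 3 had log2 signals of 8.70, 6.58 and 7.41. Adjacent samples 1, 2 and 3 had 8.43, 8.37 and 7.02, and normal bladders 1, 2 and 3 had 9.04, 8.73 and 8.76. Normal bladders lay close together, whereas tumor 1 came within a few hundredths of the lowest normal bladder and tumor 2 was the lowest of all 9 samples. No Cygb value was dim.

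The means of Cygb were 7.56 ± 1.07 in tumors, 7.94 ± 0.80 in adjacent samples and 8.85 ± 0.17 in normal bladders (SD, n = 3 arrays each). Tumors differed from normal bladders by -1.28 (SE 0.49), which is 41.1% of the normal level, and the groups did not overlap. This holds for 20.8% of all probe sets, those lower in tumors without overlap, and nothing is read from it, because the pair was selected in this contrast. The size of the difference moved with single samples, to -1.85 without tumor 1 and -0.79 without tumor 2.

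Adjacent samples were not used in choosing the pair, and Cygb was tested in them. The test shares the normal arrays of that choice and is not fully independent of it. Adjacent samples differed from normal bladders by -0.91 (SE 0.37, unadjusted 95% interval -1.76 to -0.05), which is 53.3% of the normal level. The limma adjusted p was 0.135, so Cygb was not among the 10.3% of probe sets called lower in adjacent samples, and the two-sided exact permutation p was 0.1, the smallest possible. All 3 adjacent values lay under all 3 normal values, as they did for 21.7% of probe sets. The difference came to -0.45 without adjacent sample 3, with an adjusted p of 0.113 from limma. Over the alternatives the adjusted p ran from 0.0715 to 0.323.

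Tumors, whose arrays are among those on which the pair was selected, and adjacent samples overlapped in Cygb. Their difference was -0.38 (SE 0.60, unadjusted 95% interval -1.77 to 1.02) with an adjusted p of 1 from limma and a two-sided exact permutation p of 0.7, and it came to 0.12 without tumor 2. The interval is wide enough to hold a sizable difference in either direction. For comparison, 3.39% of all probe sets were lower in tumors without overlap with adjacent samples. By the same subtraction, Cygb gave 0.27, -1.79 and 0.39 for numbers 1, 2 and 3, so only number 2 was lower in the tumor. In the order of mean level, Cygb was lowest in tumors, then adjacent samples, then normal bladders, and neither neighboring pair passed the adjusted threshold.

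The genes whose pattern over the 9 arrays was most like that of Cygb were Col3a1 (Pearson r = 0.991), Pros1 (0.988), Col1a2 (0.984), Adam23 (0.983) and Fbln1 (0.983), out of 11075 genes with a mean signal above 50. Col3a1 and Col1a2 encode fibrillar collagen chains, Fbln1 encodes the matrix protein fibulin 1, Pros1 encodes the anticoagulant protein S and Adam23 encodes a membrane protein of the disintegrin family. After each group's mean was removed, r was still 0.987 for Col3a1 and 0.974 to 0.981 for the other 4. These r values are a description over 9 arrays that share their normalization and, in 6 of them, their rats. They were picked as the highest of many and have no test.

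Col3a1 shows the same order of samples as Cygb within tumors. Its log2 signals were 14.26, 11.95 and 12.62 in tumors 1, 2 and 3, then 13.99, 13.77 and 12.50 in adjacent samples 1, 2 and 3, against 14.56, 14.45 and 14.54 in normal bladders 1, 2 and 3. As with Cygb, tumor 1 and adjacent samples 1 and 2 stood high and tumors 2 and 3 and adjacent sample 3 stood low. Col3a1 differed from normal bladders by -1.57 in tumors (limma adjusted p = 0.0799) and by -1.10 in adjacent samples (adjusted p = 0.065), neither past the threshold.

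Fibroblast and pericyte transcripts as a list moved through the samples with Cygb. Summed over the 26 measured genes of the list, which does not hold Cygb, the signal was 78.8%, 17.3% and 22.2% of the normal mean in tumors 1, 2 and 3. It was 62.7%, 51.1% and 26.4% in adjacent samples 1, 2 and 3 and between 98.9% and 101% in normal bladders. Cygb on the same scale was 89.8%, 20.7% and 36.9% in tumors, 74.6%, 71.4% and 28.1% in adjacent samples, and 91.8% to 114% in normal bladders. Pearson's r between the log2 Cygb signal and the log2 list sum was 0.969 over all 9 arrays and 0.965 over the 6 arrays of tumor-bearing rats. The list holds Col3a1, Col1a2 and Fbln1, which were picked above as most like Cygb, so this r is in part fixed by that choice. For the sum of smooth muscle genes r was 0.877 over all 9 arrays and 0.817 over the 6. In every tumor and adjacent sample the Cygb percentage was somewhat higher than that of the fibroblast and pericyte list. The part of stromal content in the Cygb values was not tested.

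**Figure D2:**
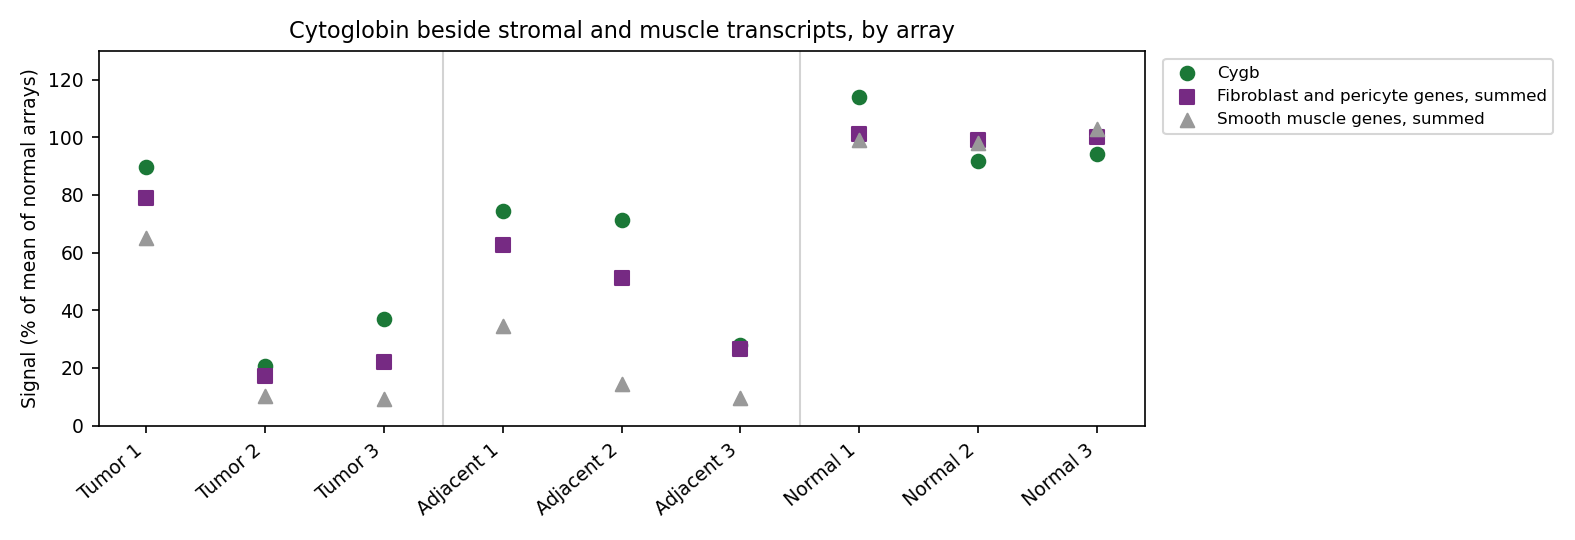
Signal as a percent of the mean of the 3 normal arrays (y axis) for Cygb, for 26 fibroblast and pericyte genes summed and for 19 smooth muscle genes summed, in each array (x axis). Cygb and the fibroblast sum are both high in tumor 1 (89.8% and 78.8%) and both low in tumor 2 (20.7% and 17.3%), while smooth muscle lies below both in all 6 samples of tumor-bearing rats.

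Of those 26 genes, 0 were higher and 3 lower in tumors against normal bladders (median log2 difference -1.80), and 0 were higher and 15 lower in adjacent samples against normal bladders (median -1.42). Over all genes limma called 13.6% higher and 9.95% lower in tumors and 13.3% higher and 11.5% lower in adjacent samples, with medians of 0.05 and 0.01. The lower genes in tumors were Pi16 (-3.43, a call that ended without tumor 2, tumor 3 or a normal array), a marker of adventitial fibroblasts, Abcc9 (-2.04), a potassium channel subunit of pericytes, and Gsn (-1.89), the actin-severing protein gelsolin. The counts turned on single arrays: without tumor 1, 22 genes of the list were called in tumors, and in adjacent samples 8 were called without adjacent sample 2 and 4 or 5 without a normal array. Pdgfrb, the receptor that marks pericytes, differed by 0.10 (SE 0.50) in tumors and 0.18 (SE 0.30) in adjacent samples (limma adjusted p of 0.912 and 0.739). Other pericyte genes of the list were called lower in adjacent samples: Cspg4 (-2.19), Kcnj8 (-0.98) and Abcc9 (-1.96), with limma adjusted p of 0.0224, 0.0302 and 0.00518. Rgs5 and Notch3 were not called in either tissue, and Cspg4 and Kcnj8 were not called in tumors.

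The summed signal of smooth muscle genes lay under that of Cygb, each as a percent of normal, in all 6 samples of tumor-bearing rats. It was 64.9%, 10.3% and 9.16% of the normal mean in tumors 1, 2 and 3, and 34.4%, 14.6% and 9.72% in adjacent samples 1, 2 and 3. Of 19 genes, 8 were lower in tumors (median -3.46) and 18 in adjacent samples (median -2.91), and 0 were higher. The tumor count ran between 0, without any single normal array, and 19, without tumor 1. Acta2, smooth muscle actin, which also marks activated stellate cells, was lower by 3.08 on the log2 scale in tumors (limma adjusted p = 0.0361), a call that ended when tumor 2, tumor 3 or a normal array was left out. It was lower by 2.91 in adjacent samples (adjusted p = 0.0103, highest 0.0498 with 1 array left out). Of the 13 measured genes of stellate-type cells, in which Cygb was first described in the rat liver, tumors had 1 lower, and adjacent samples had 4 lower and 1 higher. With 1 array left out, 0 (without tumor 2 or a normal array) to 6 (without tumor 1) were called in tumors. In adjacent samples it was 2 (without normal bladder 1 or 2) to 7 (without adjacent sample 1). The lower gene in tumors was Acta2, and those in adjacent samples were Acta2, Des, Col1a1 and Hand2. Acta2 and Des are also on the smooth muscle list and Col1a1 on the fibroblast and pericyte list, so these counts are not separate.

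The genes whose pattern was most like that of the brighter Ngb probe set were Nsun6 (Pearson r = 0.993), Car11 (0.993), Sfrp5 (0.992), Fmo2 (0.990) and Fads2 (0.988). Nsun6 encodes an RNA methyltransferase, Car11 a carbonic anhydrase-related protein, Sfrp5 a secreted inhibitor of Wnt signals, Fmo2 a flavin monooxygenase and Fads2 a fatty acid desaturase. None of these is a gene of the neuron list used here. With group means removed, r was 0.849 to 0.908, though deviations of Ngb among dim arrays carry little order. Fmo2 had log2 signals of 6.17, 4.74 and 6.07 in tumors 1, 2 and 3, then 5.34, 4.90 and 4.80 in adjacent samples 1, 2 and 3, against 9.47, 9.95 and 9.74 in normal bladders 1, 2 and 3.

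These 5 genes passed the limma threshold in both comparisons with normal bladder. Fmo2 was lower by 4.06 on the log2 scale in tumors (SE 0.39, adjusted p = 0.00272) and at least 16.9-fold lower in adjacent samples (adjusted p = 0.000268). Nsun6 had the smallest difference, -1.10 in tumors (SE 0.19) and -1.27 in adjacent samples (SE 0.20). Its tumor call was lost without any single normal array (adjusted p up to 0.0608). They were selected for likeness to Ngb, so their calls are no separate support for the values of Ngb.

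Few probe sets were bright in normal bladders and dim in all other samples as the brighter Ngb probe set was. Counted after the values were seen, 17 of 31042 probe sets had a signal of at least 200 in every normal bladder and under 50 in all 6 other samples. The number depends on the level set for normal bladders: it was 66 at a signal of 100, 4 at 500 and 1 at 1000. That last one is the brighter Ngb probe set, but Ngb was selected on its low signal in tumors against normal bladders. Its place in these counts follows in part from that choice, and nothing is read from it. The second Ngb probe set is in none of them, because normal bladder 1 was dim on it. Of the 17, 11 have 1 gene, 6 have none, and the 10 genes beside Ngb are Stmn2, Nefl, Ces1d, Prlr, Apobec2, Dgkg, Tafa2, Enho, Olig1 and Slc15a2. Stmn2 (stathmin 2, a microtubule regulator of growing axons) and Nefl (the light neurofilament chain) are neuronal, and Olig1 is a transcription factor of glia. Ces1d is a carboxylesterase, Prlr the prolactin receptor, Enho the secreted peptide adropin and Slc15a2 a peptide transporter. Their bounds ran from at least 5.02-fold (Tafa2) to at least 23.8-fold (Ces1d) lower, the same in both tissues because it is set by the normal bladders. A bound depends on how bright a probe set is in normal bladder, so these genes are not ranked against Ngb.

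The nerve genes of that pattern were dim or near dim outside normal bladder. Stmn2 had log2 signals of 3.88, 4.70 and 5.22 in tumors 1, 2 and 3, then 1.83, 3.27 and 3.56 in adjacent samples 1, 2 and 3, against 9.06, 8.88 and 8.33 in normal bladders 1, 2 and 3. It was at least 8.66-fold lower in tumors (limma adjusted p = 0.00272) and in adjacent samples (adjusted p = 0.000774). Nefl, on its brighter probe set, had 6.23, 4.47 and 3.44 in tumors, 4.64, 3.48 and 4.56 in adjacent samples, and 9.89, 10.11 and 10.05 in normal bladders. Nefl was lower by 5.30 on the log2 scale in tumors (adjusted p = 0.00439) and at least 20.7-fold lower in adjacent samples (adjusted p = 0.000271). All of these calls held with each array left out in turn, whereas the call of the dimmer Nefl probe set in tumors was lost without any single normal array (adjusted p up to 0.0607). Both genes were picked for being bright in normal bladders and dim elsewhere. Low adjusted p values therefore follow from the choice, and these calls are no separate support for the values of Ngb.

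**Figure D3:**
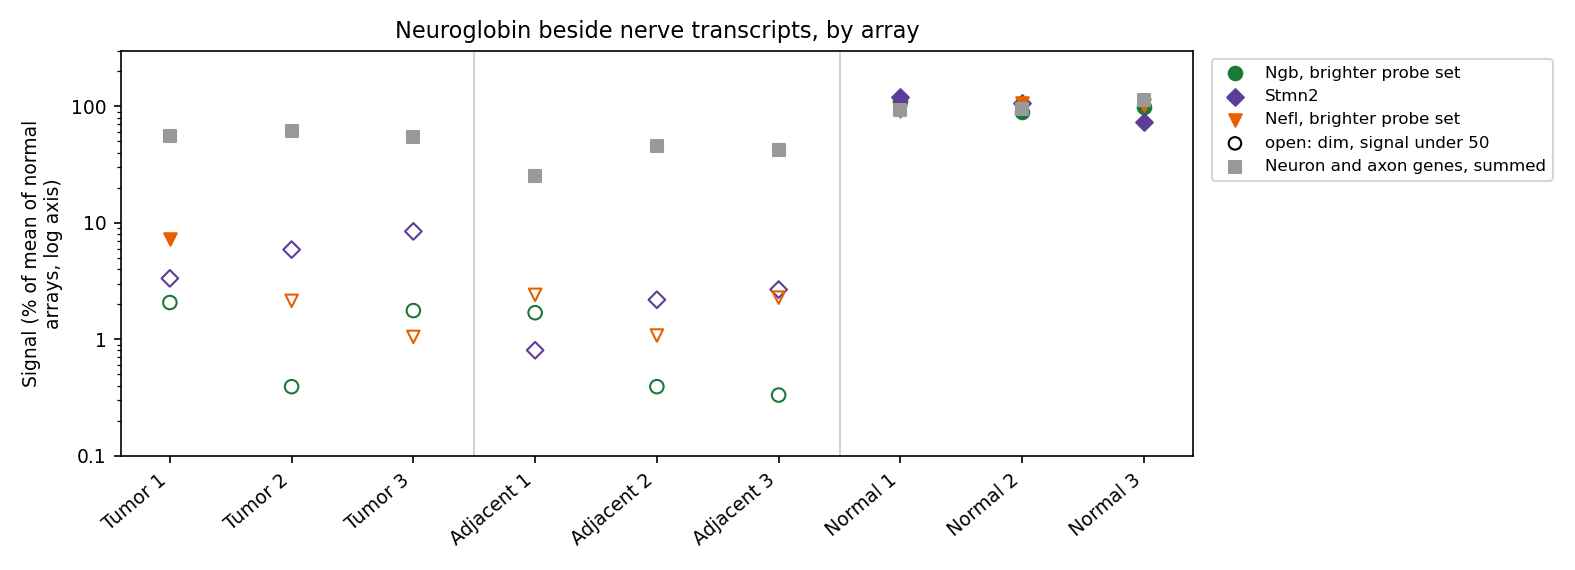
Signal as a percent of the mean of the 3 normal arrays (y axis, log scale) for the brighter Ngb probe set, Stmn2, the brighter Nefl probe set and 32 neuron and axon genes summed, in each array (x axis). Open symbols are dim signals (under 50), whose height carries little order. All 6 Ngb points of tumor-bearing rats are open and lie under 2.89%, the share that a signal of 50 stands for. The neuron sum, weighed by its brightest genes, is at 25.1% to 61.8% there.

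As a sum, the neuron and axon genes differed from normal bladders by less than Ngb did. A sum is weighed by its brightest genes, and a gene dim in normal bladders cannot fall far. Neither the sum nor the median therefore gives the size of the difference in single genes. Summed over the 32 measured genes of this list, the signal was 55.7%, 61.8% and 54.9% of the normal mean in tumors 1, 2 and 3. It was 25.1%, 45.6% and 41.9% in adjacent samples 1, 2 and 3, against 92.3% to 113% in normal bladders. In tumors 1 of 32 was higher and 4 were lower (median log2 difference -0.46), and in adjacent samples 1 was higher and 9 were lower (median -0.92). The share of lower genes is near that of all genes in tumors (9.95%) and above it in adjacent samples (11.5%). Without tumor 1 the number called in tumors was 12, with each other array left out it was 2 or 3, and in adjacent samples it ran from 5, without normal bladder 3, to 10.

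The lower neuron genes in tumors were Rbfox3, Nefl, Stmn2 and Prph. Rbfox3 (the neuronal splicing factor NeuN) differed by -5.58 in tumors (limma adjusted p = 0.0284) and by -6.12 in adjacent samples (adjusted p = 0.0124). Leaving out tumor 2, tumor 3 or a normal array ended its call in tumors, leaving out normal bladder 3 ended its call in adjacent samples, and tumor 1 kept a log2 signal of 8.44, against 10.16 to 11.65 in normal bladders. Prph (peripherin, a filament of peripheral neurons) differed by -1.92 in tumors (adjusted p = 0.0379) and by -2.12 in adjacent samples (adjusted p = 0.00159), and its call in tumors did not hold without tumor 2, tumor 3 or a normal array (adjusted p up to 0.124). The one higher gene was Nefh, the heavy neurofilament chain, at least 2.73-fold higher in tumors (adjusted p = 0.0163) and at least 2.60-fold in adjacent samples (adjusted p = 0.00983). Leaving out tumor 2, tumor 3, normal bladder 2 or normal bladder 3 ended its call in tumors. In adjacent samples Nefm, the medium neurofilament chain, was also at least 6.48-fold lower (adjusted p = 0.00453, a call that held with each array left out). Gap43, a protein of growing axons, differed there by -1.75 (adjusted p = 0.00896, and 0.0509 without normal bladder 3). In tumors Nefm differed by -4.46 (SE 1.59) and was not called (limma adjusted p = 0.0975). Uchl1, an abundant enzyme of neurons, was not called: it differed by 0.26 (SE 0.19) in tumors and -0.63 (SE 0.40) in adjacent samples, with adjusted p of 0.383 and 0.32.

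Glial and fat genes differed among themselves. Of 12 Schwann cell genes, tumors had 2 higher and 2 lower, and adjacent samples had 2 higher and 3 lower, with 0 to 5 and 2 to 5 called in all when 1 array was left out. S100b, a calcium-binding protein of glia, differed by -3.15 in tumors (limma adjusted p = 0.0498, lost without tumor 2, tumor 3 or a normal array) and by -2.70 in adjacent samples (adjusted p = 0.00358). Mbp, myelin basic protein, differed by 0.92 (adjusted p = 0.0496) and 0.86 (adjusted p = 0.0289), calls that both ended without a normal array and, in tumors, also without tumor 2 or tumor 3. Because several genes patterned like Ngb are known from fat, 10 adipocyte genes were looked up after the values were seen, of which 9 were measured. Their sum was 109%, 124% and 52.6% of the normal mean in tumors 1, 2 and 3, and 79.3%, 76.6% and 62.1% in adjacent samples 1, 2 and 3, against 92.7% to 110% in normal bladders. Adipoq (adiponectin) had log2 signals of 3.68, 6.08 and 5.93 in tumors 1, 2 and 3 and from 4.96 to 6.18 in adjacent samples, against 9.13, 5.80 and 6.50 in normal bladders 1, 2 and 3, where it was high in normal bladder 1 alone. Cidec, Pck1 and Plin1, also on this list, were likewise highest in normal bladder 1, with log2 signals of 7.69, 7.83 and 7.43. Lep was dim in all 9 arrays, and Cfd in tumor 1 (10.55) lay within the normal bladders (10.02 to 10.70). Plin4 and Lpl were even in normal bladders and lower elsewhere. Plin4 (perilipin 4, of lipid droplets) had 8.64, 4.89 and 5.85 in tumors 1, 2 and 3 and 8.02, 6.39 and 5.68 in adjacent samples 1, 2 and 3, against 10.25, 10.15 and 10.27 in normal bladders 1, 2 and 3. Lpl (lipoprotein lipase) ran from 9.36 to 11.33 in tumors and 8.77 to 10.98 in adjacent samples, against 12.08 to 12.45 in normal bladders. Fabp4 (a fatty acid carrier), the brightest of the 9, was at 13.06 to 14.41 in tumors and 13.34 to 13.57 in adjacent samples, against 13.22 to 13.45 in normal bladders, and weighs most in the sum. The part of nerve, glial or fat content in the Ngb values was not tested.

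Among the other globins, the hemoglobin chains Hbb and Hba-a3 lay above the dim limit in all 9 arrays. Hbb (the beta chain of hemoglobin) had log2 signals of 14.03, 12.06 and 12.78 in tumors 1, 2 and 3, then 11.81, 10.72 and 11.75 in adjacent samples 1, 2 and 3, against 13.19, 13.77 and 13.67 in normal bladders 1, 2 and 3. Tumor 1 was above every normal bladder, and the adjacent samples were below all of them. Hbb differed by -0.59 in tumors (limma adjusted p = 0.425) and by -2.12 in adjacent samples (adjusted p = 0.00351). Hba-a3 (an alpha chain) was lower by 2.29 on the log2 scale in tumors (adjusted p = 0.0223) and lower by 2.31 in adjacent samples (adjusted p = 0.00353). The Hba-a3 call in tumors was lost without tumor 2 or a normal array. Hemoglobin chains have near-identical copies, so the signal of one probe set can include others.

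Mb (myoglobin, the oxygen store of muscle) was dim in all 9 arrays, with log2 signals of 1.23 to 4.98 in tumors, 3.47 to 4.56 in adjacent samples and 3.85 to 4.72 in normal bladders, and no fold is given. Of the 12 measured globin and red cell genes, 0 were higher and 2 lower in tumors (Hba-a3 and the red cell membrane protein Gypc), with a median of -0.76. In adjacent samples 0 were higher and 5 lower, Hba-a3, Gypc, Hbb, the hemoglobin chaperone Ahsp and the red cell heme enzyme Alas2, with a median of -1.23. With 1 array left out, 0 (without tumor 2 or a normal array) to 5 (without tumor 1) were called in tumors, and 3 (without normal bladder 2) to 5 in adjacent samples. The embryonic and fetal chains Hbe1, Hbe2, Hbg1 and Hbz and the red cell membrane genes Slc4a1 and Epb42 did not pass the threshold in either tissue.

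Genes of globin reduction and of nitric oxide synthesis and signaling changed in single members. Of 22 genes for globin reductases and nitric oxide signaling, 2 were higher and 3 lower in tumors (median 0.06), and 1 was higher and 1 lower in adjacent samples (median 0.10). These shares are near or under those of all genes, and with 1 array left out 1 (without a normal array) to 11 (without tumor 1) were called in tumors and 1 to 6 (without adjacent sample 1) in adjacent samples. Gch1, which starts the synthesis of the cofactor of nitric oxide synthases, was higher by 3.27 in tumors (limma adjusted p = 0.013) and by 3.43 in adjacent samples (adjusted p = 0.0134), calls lost without normal bladder 2 or 3 and, in tumors, without normal bladder 1. Ddah2, which degrades an inhibitor of nitric oxide synthases, was lower by 1.70 in tumors (adjusted p = 0.00197) and lower by 1.50 in adjacent samples (adjusted p = 0.00365), calls that held with each array left out. Cyb5r3, a cytochrome b5 reductase that can reduce Cygb, differed by -0.20 (SE 0.25) in tumors and by -0.61 (SE 0.22) in adjacent samples, with adjusted p of 0.634 and 0.0928. Cyb5r2, also on the list, differed by -1.25 in tumors (adjusted p = 0.0316) and by -1.78 in adjacent samples (adjusted p = 0.0731). Por, another member, was higher by 0.92 in tumors (adjusted p = 0.0149) and was not called in adjacent samples (adjusted p = 0.077). The synthases Nos1, Nos2 and Nos3 did not pass the threshold.

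Genes of heme, of oxidant defence and of low oxygen, the settings in which these globins are usually studied, held larger shares of higher genes than the 13.6% in tumors and 13.3% in adjacent samples over all genes, a description with no test. Of 20 heme genes, tumors had 8 higher and 1 lower (median 0.39), and adjacent samples had 4 higher and 2 lower (median 0.14). Hmox1, the enzyme that breaks down heme, was higher by 4.09 on the log2 scale in tumors (limma adjusted p = 0.00519) and by 2.36 in adjacent samples (adjusted p = 0.00919). Of 26 oxidant defence genes, tumors had 11 higher and 1 lower, and adjacent samples had 11 higher and 5 lower. Gpx2, the glutathione peroxidase of epithelia, was higher by 5.61 in tumors (adjusted p = 0.000434) and by 5.50 in adjacent samples (adjusted p = 0.000411). The list named hypoxia targets here has 36 measured genes and also holds regulators, such as Hif1a, Vhl and Arnt. Tumors had 13 higher and 4 lower (median 0.21), with Hif1a and Vhl among the higher and Arnt among the lower. Adjacent samples had 9 higher and 2 lower (median 0.09). The share of lower genes was also above that of all genes (11.5%) for oxidant defence in adjacent samples. For hypoxia targets in tumors it was near that of all genes (9.95%).

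Slc2a1, the glucose transporter and a standard hypoxia target, was higher by 3.08 in tumors (limma adjusted p = 0.00181) and by 2.60 in adjacent samples (adjusted p = 0.00203). It was named as the gene of its list with the largest higher difference in tumors. Car9, Egln3, Ankrd37, Pdk1 and Ddit4, also on that list, were not called in either tissue. The calls of Hmox1, Gpx2 and Slc2a1 held with each array left out. Members of these lists also ran the other way. Flvcr1, a heme exporter, was lower by 0.93 in tumors (adjusted p = 0.00672) and lower by 0.65 in adjacent samples (adjusted p = 0.0215, lost without adjacent sample 2 or a normal array). Gpx7, a peroxidase of the endoplasmic reticulum, was lower by 1.42 in tumors (adjusted p = 0.0382, lost without tumor 2, tumor 3 or a normal array) and lower by 1.71 in adjacent samples (adjusted p = 0.0136, lost without a normal array). Arnt, the partner of hypoxia-inducible factors, was called lower in tumors but was dim in all 9 arrays. The other genes of the hypoxia list called lower in tumors were Slc2a3 (-1.48, adjusted p = 0.0474), Bnip3 (-1.19, adjusted p = 0.0178) and P4ha1 (-1.03, adjusted p = 0.0382). Slc2a3 (-1.26, adjusted p = 0.0242) and P4ha1 (-1.18, adjusted p = 0.00424) were also called lower in adjacent samples. The list counts did not hold as well: with 1 array left out, hypoxia targets called in tumors ran from 6 to 20 and in adjacent samples from 3 to 14, oxidant defence genes from 5 to 18 in tumors and from 8 to 18 in adjacent samples, and heme genes from 3 to 11 in tumors and from 4 to 9 in adjacent samples. The highest tumor counts came without tumor 1 and the lowest without a normal array.

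**Figure D4:**
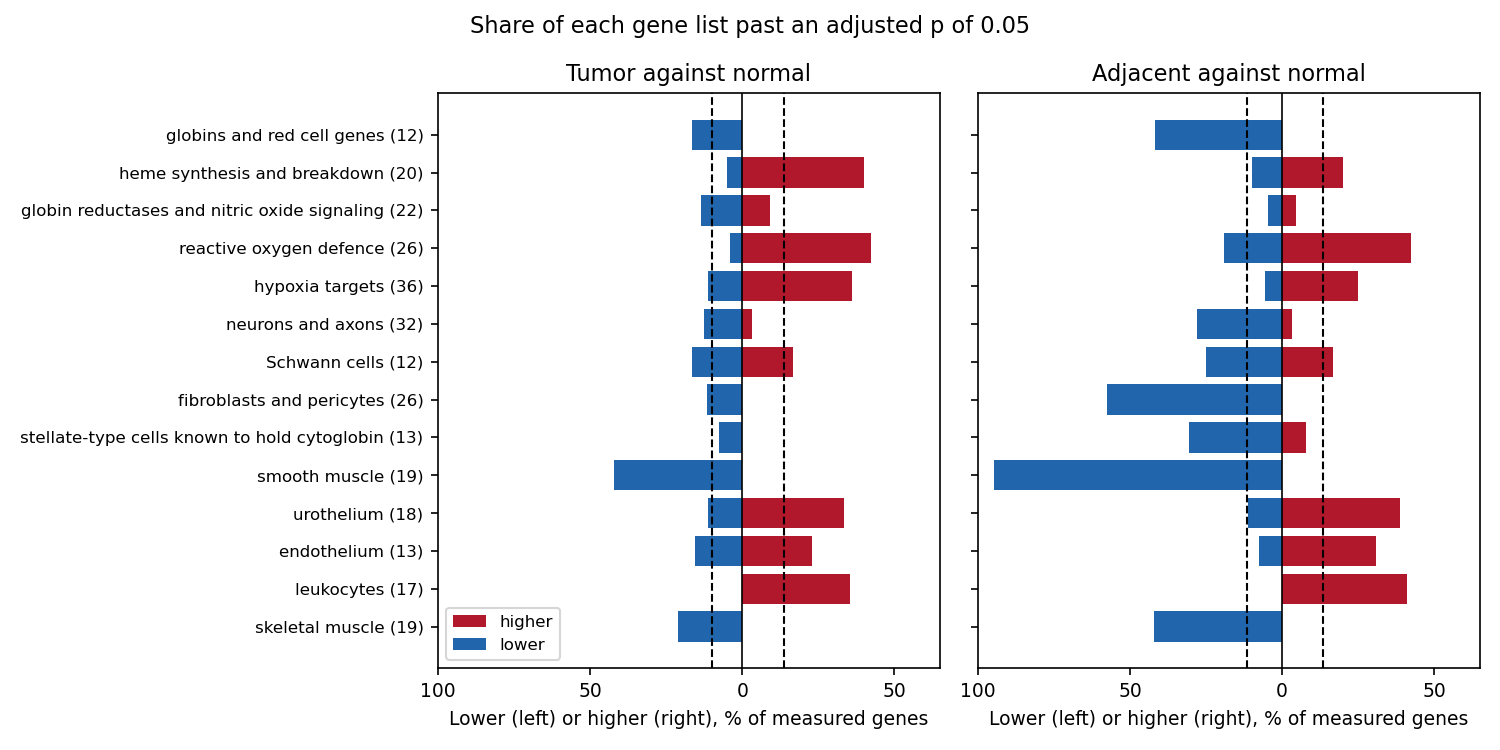
Share of the measured genes of each list (number in brackets) that passed an adjusted p of 0.05, to the right of 0 when higher and to the left when lower, in tumors (left panel) and adjacent samples (right panel), each against normal bladders. Dashed lines mark the shares over all genes, 13.6% higher and 9.95% lower in tumors and 13.3% higher and 11.5% lower in adjacent samples; smooth muscle has the longest bar to the left in both panels.

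Across all arrays, median log2 signals ran from 6.87 to 7.24 and 30.4% to 36.1% of probe sets were dim. Centring each array on its median would raise every difference against normal bladder by 0.20, and with it the share of higher calls from limma was 62.3% in place of 49.4% in tumors and 63.0% in place of 45.7% in adjacent samples. Under that centring Ngb differed by -6.27 in tumors and -7.17 in adjacent samples, and Cygb by -1.08 and -0.71. Of 17 leukocyte genes 6 were higher in tumors (3 without a normal array) and 7 in adjacent samples, with 0 lower, and their sum ran from 182% to 576% of the normal mean in samples of tumor-bearing rats. S100a9, a protein of neutrophils, was higher by 6.75 in tumors (adjusted p = 0.00403) and by 6.84 in adjacent samples (adjusted p = 0.00194). Of 18 urothelial genes, which define the lining these tumors arise from, tumors had 6 higher and 2 lower and adjacent samples had 7 higher and 2 lower. Their sum was 135% to 156% of the normal mean in tumors and 110% to 144% in adjacent samples. Of 13 endothelial genes, tumors had 3 higher and 2 lower and adjacent samples 4 higher and 1 lower, and of 19 skeletal muscle genes, tumors had 4 lower and adjacent samples 8 lower, with 0 higher. The shares to set beside these lists, and beside the Schwann cell, stellate-type and globin lists above, are those over all genes. They were 13.6% higher and 9.95% lower in tumors and 13.3% higher and 11.5% lower in adjacent samples. With 1 array left out, urothelial genes called ran from 4 to 12 in tumors and from 6 to 10 in adjacent samples. Endothelial genes ran from 2 to 10 and from 2 to 6, and skeletal muscle genes from 1 to 8 and from 5 to 8. The basal keratin Krt14 was higher by 4.81 in tumors (adjusted p = 0.000321) and by 4.65 in adjacent samples (adjusted p = 0.000268). The 2 lower urothelial genes in tumors mark the surface layer: Krt20 differed by -3.82 (adjusted p = 0.0208, lost without a normal array) and Upk1a by -1.31 (adjusted p = 0.0482, lost without tumor 2, tumor 3 or a normal array). The other uroplakins listed, Upk1b (-0.17), Upk3a (-0.16) and Upk2 (-2.10), were not called in tumors (adjusted p of 0.453, 0.4 and 0.0652). In adjacent samples Krt20 was called lower (-1.70, adjusted p = 0.00528) and Upk1a was not (-0.83, adjusted p = 0.178).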

How the data were processed

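RNA of 9 rat tissue samples was labelled by 3' in vitro transcription and hybridised to Affymetrix arrays by the authors, who normalized the scans with the MAS 5.0 algorithm. The deposited values are log2 signals. A script checked that the linear mean after trimming 2% at either end was alike on all arrays (500.1 to 500.2). Of 31099 probe sets, 57 array controls were left out. The annotation names 1 gene for 20826 of the rest, several for 436 and none for 9780, and a gene was represented by its probe set with the highest mean over the 9 arrays.

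The 3 pairs of groups were fitted separately, over 31042 probe sets, with limma 3.58.1 in R 4.3.3 (lmFit, eBayes with trend), with Benjamini-Hochberg adjustment and a threshold of 0.05, after a test on simulated data. Exact permutation tests were two-sided. The rule for named genes took every probe set of Ngb and Cygb, all globin and red cell genes, the highest and lowest changed member of other lists, and the 5 genes most correlated with each. Those of the endothelial, skeletal muscle and smooth muscle lists are not printed. Other genes were named after their values were seen. Members and gene lists were chosen with earlier results of these data known. Per the series design each group holds samples of 3 rats. The number of arrays limits the precision. Alternatives were quantile and median scaling, leaving out probe sets under the 40th percentile in mean signal, 50 added before log2, no trend, 1 fit of 9 arrays, a replicate block, the methods' t-test, other dim limits, the mean of probe sets, and leaving out each array.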

Additional observations from a re-analysis of the deposited data

How the results depend on the processing

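The direction of Ngb and Cygb against normal bladder was the same under every alternative run. With 50 added before log2, the Ngb difference was -4.60 in tumors and -4.82 in adjacent samples, a scale that shrinks dim values by construction, and with the mean of its probe sets it was -4.65 and -5.52. The Ngb bound was 17.3-fold in both tissues at a dim limit of 100. At a limit of 25 there is no bound, because tumors 1 and 3 and adjacent sample 1 lie above it. Neither Ngb probe set passed the filter at the 40th percentile. Cygb in tumors against adjacent samples ran from -0.94 to 0.12 with 1 array left out, and its sign reversed (0.12) without tumor 2.

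Changed probe sets in tumors against normal bladders numbered 5574, against 2376 without a variance trend, 1764 by the methods' t-test after adjustment, 3705 with the replicate block, and 1453 to 9216 with 1 array left out. In adjacent samples against normal bladders they numbered 5873, against 3414 without a trend, 2394 by the methods' t-test after adjustment, and 2691 to 7198 with 1 array left out. In tumors against adjacent samples 0 changed, against 395 by the methods' t-test with a fold of 2 and no adjustment. Without a variance trend the list counts also moved: in tumors to 8 hypoxia targets, 6 oxidant defence genes and 1 smooth muscle gene, and in adjacent samples to 2 hypoxia targets, 8 oxidant defence genes and 4 fibroblast genes. The cause of these moves was not tested. Tumor and adjacent samples of the same number had correlated deviations of 0.240, 0.044 and 0.137, and tumor 2 correlated best with adjacent sample 3 (0.106), so the numbers were not taken as pairs, although the design calls the tissues paired. With the replicate block, tumors against adjacent samples gave a limma adjusted p of 0.919 for Ngb and 0.934 for Cygb, neither past the threshold. Against normal bladders the block joins different rats that share only a number, and Cygb in adjacent samples then had an adjusted p of 0.1. A bound, and not a fold, is all that the dim arrays allow for Ngb.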
